A study of Mus musculus with 9 samples.

Results

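The 7 retinoid genes described here were Cyp26a1, Rbp4, Lrat, Aldh1a1, Rarb, Rdh11 and Rdh7. They were taken from the 16521 genes of the liver RNA-seq tables by a fixed list of gene names, after the gene identifiers had been matched to symbols. The list covered secretion, storage, oxidation, breakdown and sensing of vitamin A, and Cyp26a1 was selected on its deposited group means because these rose in both comparisons. Cyp26a1 is therefore described without a test, and its pattern supports no other result.

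The study asked how sarsasapogenin (SAR), a steroidal sapogenin of plants, affects fatty liver in C57BL/6 mice fed a diet that lacks methionine and choline (MCD), which causes steatosis, inflammation and fibrosis. The normal group, titled wt, had saline and, as far as the labels say, no MCD diet. The titles of the model and SAR groups give no genotype. The model group had the MCD diet, and the SAR group had the MCD diet and a high dose of SAR whose amount, route and duration the labels do not give. Each group had 3 liver RNA libraries, and age and sex are not stated in the sources used here. The labels do not say that the 3 libraries of a group came from separate mice. Each p-value therefore weighs a group difference only against the spread between these libraries, which need not be the spread between mice.

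The liver takes up dietary vitamin A and keeps most of the body's store as retinyl esters. Hepatocytes release retinol into blood bound to retinol-binding protein (RBP4), and stellate cells esterify retinol through lecithin retinol acyltransferase (LRAT). Retinol dehydrogenases of the RDH family convert retinol and retinal into each other, aldehyde dehydrogenases such as ALDH1A1 oxidise retinal to retinoic acid, and CYP26 enzymes break retinoic acid down. Retinoic acid acts through the nuclear receptors RARA, RARB and RARG, which bind DNA with RXR partners at direct repeats of a short core motif. Rarb and Cyp26a1 are textbook retinoic acid target genes.

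The promoters of Cyp26a1 and Rarb are shown because both hold such a repeat, and the expression of these genes is set side by side below. Sequences came from RefSeq promoters of build GRCm38.p6, while the expression files use mm9 and carry no coordinates, so the builds were not mixed. The window of Cyp26a1 is chr19:37697558-37697857 on the plus strand, and that of Rarb is chr14:16575427-16575726 on the minus strand. Each runs from 250 bases before to 50 bases after the start site and is written 5′ to 3′ along the gene. Capitals mark the repeat.
Cyp26a1: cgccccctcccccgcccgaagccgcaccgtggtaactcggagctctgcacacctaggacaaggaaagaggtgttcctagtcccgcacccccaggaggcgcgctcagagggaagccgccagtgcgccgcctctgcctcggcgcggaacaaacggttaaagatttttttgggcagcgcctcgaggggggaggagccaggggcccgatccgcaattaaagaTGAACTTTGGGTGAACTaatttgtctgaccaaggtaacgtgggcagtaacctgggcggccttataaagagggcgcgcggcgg
Rarb: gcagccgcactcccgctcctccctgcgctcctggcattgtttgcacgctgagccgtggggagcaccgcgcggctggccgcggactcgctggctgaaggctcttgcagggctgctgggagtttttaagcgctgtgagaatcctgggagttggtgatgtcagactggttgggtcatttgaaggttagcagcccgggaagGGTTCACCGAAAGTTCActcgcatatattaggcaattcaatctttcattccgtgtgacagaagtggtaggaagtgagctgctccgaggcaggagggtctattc
The repeat searched, DR5, was any pair of the core motifs AGGTCA or AGTTCA or GGGTCA or GGTTCA in the same direction with a spacer of 5 bases, on either strand. In Rarb it reads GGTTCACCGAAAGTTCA on the strand of the gene, from 53 to 37 bases before the start site. In Cyp26a1 it reads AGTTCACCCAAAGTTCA on the opposite strand, from 32 to 16 bases before the start site. Of 32851 promoters of the same length, with those of a single chromosome left out of the search, 32 held a DR5 (0.0974%). All 7 genes had a promoter in the table, 11 promoters in all, and no other promoter of the 7 held a DR5. Of the 84 genes on the pathway and target lists used below, 62 had a promoter in this set, which genes of the omitted chromosome could not have. Among those, spacers of 2 bases (DR2) gave no match and spacers of 1 base (DR1) matched Bco1 alone. DR2 stood in 0.268% and DR1 in 0.222% of the 32851 promoters. A match is a description of letters, not of binding.

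The deposited values are group means, from which whole reads per library were recovered. The genes with resolved reads held 8080584 to 11432896 reads per library, and all 7 retinoid genes were resolved in all 9 libraries. Levels below are reads divided by a size factor common to the 9 libraries, called normalised reads. The 3 libraries of a group are named a, b and c by falling size factor, which carries no link to the replicate numbers of the labels. Library c of the normal group and library c of the model group differed from the other libraries beside them. In normal library c, 11 neutrophil markers summed to 7992 normalised reads, against 119 and 276 in libraries a and b. Its 12 male-biased liver genes summed to 24366, against 288820 and 238770. The 4 Y-linked genes looked up (Ddx3y, Eif2s3y, Kdm5d and Uty) summed to 2324, 2443 and 2577 in normal libraries a, b and c. They summed to 1397 to 1699 in model and 1920 to 2223 in SAR livers, and Xist and Tsix had no entry. In model library c, 11 of 12 pericentral hepatocyte genes, those with resolved reads, summed to 59245, against 14779 and 15223 in libraries a and b. Its 11 activated stellate cell markers summed to 4360, against 21749 and 19383. Hepatocyte markers were present in every library, as the liver label requires. None of the 12 of 15 with reads resolved in all 9 libraries was at 0 throughout a group. Over all genes tested, 19.8% were called higher and 19.2% lower in model against normal livers. Against model livers, 13.5% of genes were called higher and 16.1% lower in SAR livers, and against normal livers 1.61% and 1.75%. A call is an adjusted p under 0.05 in limma on log2(normalised reads + 1), two-sided, adjusted by the Benjamini-Hochberg method over all genes tested.

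**Figure D1:**
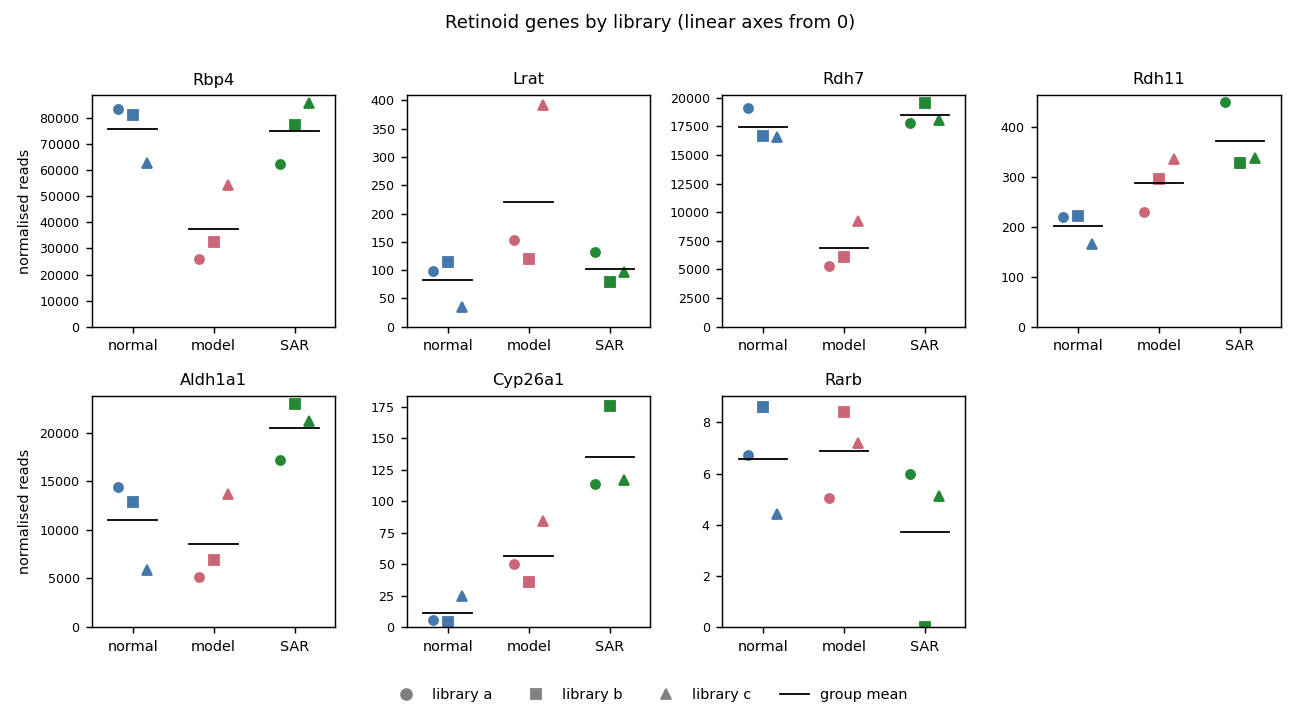
Levels of the 7 retinoid genes in each library, as normalised reads on linear axes that start at 0, with the normal, model and SAR groups on the x axis. Points are libraries a, b and c of each group and the line is the group mean of 3. Rdh7 fell to between 5339 and 9242 in the model group and stood between 17832 and 19499 in the SAR group, and the 3 groups of Cyp26a1 do not overlap.

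Of the 5 genes tested besides Cyp26a1, 1 was called in model against normal livers, Rdh7, which was lower. Against model livers 2 were called higher in SAR livers, Rdh7 and Aldh1a1, and in SAR against normal livers 1 was called higher, Rdh11. None was called in the other direction. Over all genes tested, the matching shares were 19.2% lower, 13.5% higher and 1.61% higher. With 5 genes tested, these counts do not set the members apart from all genes. Rarb was below the mean of 10 normalised reads needed for testing in all 3 comparisons. Both comparisons with the model group use the same 3 model libraries, so their values are given side by side and not as independent evidence.

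Rbp4 encodes the carrier that takes retinol from the liver into blood, and it was the most abundant of the 7 per kilobase. Its level was 83325, 81128 and 62704 normalised reads in normal libraries a, b and c. It was 26109, 32349 and 54404 in the model libraries and 62310, 77202 and 85722 in the SAR libraries. All model libraries lay below all normal and all SAR libraries, and the highest model value was that of library c. The log2 difference was -1.08 ± 0.55 (SE, n = 3 and 3) in model against normal livers (limma, adjusted p = 0.155) and 1.08 ± 0.43 in SAR against model livers (limma, adjusted p = 0.0857). Neither passed the test. Without model library c the adjusted p of limma was 0.0331 for model against normal, at a log2 difference of -1.38, and 0.00578 for SAR against model, at 1.38. Without both model library c and normal library c, model against normal gave -1.51 (limma, adjusted p = 0.00131). The authors' deposited table, made with another test, gives Rbp4 a fold of 0.495 with an adjusted p of 0.00229 for model against normal, and a fold of 2.03 with 0.00504 for SAR against model. SAR and normal livers differed by -0.01 ± 0.33 on the log2 scale (limma, adjusted p = 0.985), which leaves room for a difference in either direction.

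Summed hepatocyte markers were, like Rbp4, lowest in model livers, but differed from Rbp4 elsewhere. Among normal libraries the marker sum was highest in library c (480730), where Rbp4 was lowest. All SAR sums lay below all normal sums, while the SAR and normal ranges of Rbp4 overlapped. The 12 of 15 markers with resolved reads summed to 400830 to 480730 normalised reads in normal, 106100 to 187000 in model and 278120 to 379880 in SAR livers, and the part of this in the results for retinoid genes was not tested. In these bulk samples fewer cells of a type and less RNA per cell cannot be told apart. Of the 12 tested, 8 were lower in model livers and 10 were higher in SAR than in model livers (limma, adjusted p under 0.05). The shares over all genes were 19.2% and 13.5%. Transthyretin (Ttr), which travels in blood with RBP4, had 66104, 64643 and 33031 normalised reads in normal livers, 37585, 46584 and 48457 in model livers and 106710, 80702 and 84194 in SAR livers. Its model and normal libraries overlapped, and its SAR libraries lay above all others. Ttr did not pass in either comparison, at log2 differences of -0.25 (limma, adjusted p = 0.727) and 1.06 (limma, adjusted p = 0.0775), but passed in SAR against model without model library c (1.13, limma, adjusted p = 0.0196).

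Lrat encodes the enzyme that esterifies retinol for storage. Its normal libraries had 98.8, 114 and 35.2 normalised reads, its model libraries 152, 119 and 391, and its SAR libraries 131, 79.8 and 96.1. Model library c alone stood high and normal library c alone stood low, and the other 7 libraries lay between 79.8 and 152. The log2 difference was 1.37 ± 0.56 in model against normal livers (limma, adjusted p = 0.0871) and -0.91 ± 0.41 in SAR against model livers (limma, adjusted p = 0.12), so Lrat passed in neither. With normal library c and model library c both left out, the first difference was 0.33 (limma, adjusted p = 0.22). Without model library c the second was -0.40 (limma, adjusted p = 0.246).

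Summed markers of stellate cells, the cells in which LRAT works, were higher in model livers. The 15 quiescent stellate cell markers summed to 1917 to 6216 normalised reads in normal, 9099 to 11965 in model and 4403 to 6411 in SAR livers. The largest part of this sum was Dcn, with a mean of 5312 in model livers. Among the 14 tested, 7 were higher in model than in normal livers and 9 were lower in SAR than in model livers. The shares over all genes were 19.8% and 16.1%. Not all markers moved the same way. Colec10 and Vipr1 had lower means in model (116 and 239) than in normal livers (228 and 371), and neither was called. The 11 activated stellate cell markers summed to 151 to 1644, 4360 to 21749 and 1389 to 3668. No marker of either list was at 0 throughout a group, and their part in the Lrat levels was not tested.

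Aldh1a2, a retinal dehydrogenase, had at most 1.92 normalised reads in normal livers. Its model libraries had 37.6, 23.7 and 3.19, and its SAR libraries had 0, 6.04 and 6.41. Its normal libraries held 2, 1 and 1 reads, so Aldh1a2 passed the filter on low values only through the model group, and its test is not used here.

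**Figure D2:**
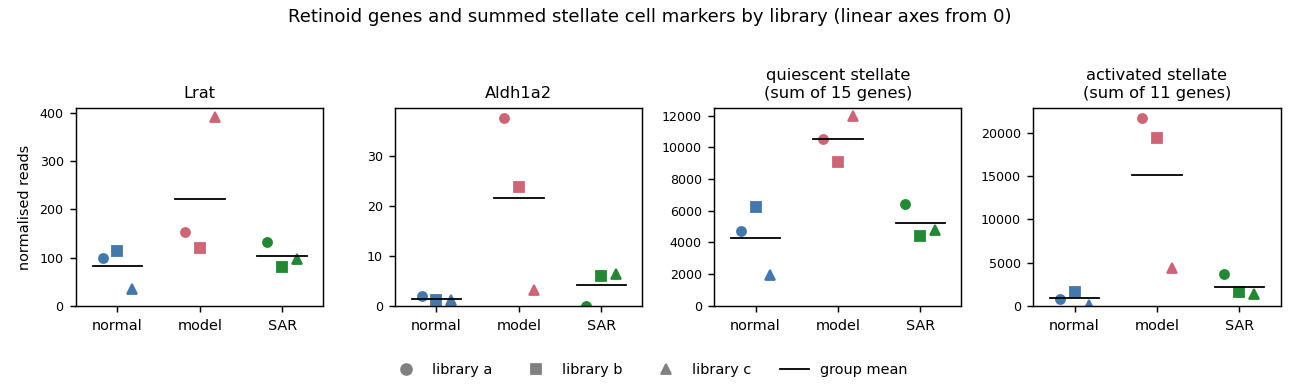
Levels of Lrat and Aldh1a2, and the summed levels of 15 quiescent and 11 activated stellate cell markers, as normalised reads per library on linear axes that start at 0. Points are libraries a, b and c of each group and the line is the group mean of 3. Model library c is highest for Lrat (391) and lowest in its group for Aldh1a2 and the activated markers (4360).

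Rdh7, a hepatic short-chain retinol dehydrogenase, had the smallest adjusted p of the 5 tested genes in both comparisons with the model group. It had 19097, 16630 and 16560 normalised reads in normal livers, 5339, 6071 and 9242 in model livers and 17832, 19499 and 18076 in SAR livers. The highest model library lay below every normal and SAR library, whose ranges overlapped each other. Rdh7 fell by 1.39 on the log2 scale in model livers (SE 0.29, limma, adjusted p = 0.0101) and was 1.49 ± 0.27 higher in SAR than in model livers (limma, adjusted p = 0.00536). SAR and normal livers differed by 0.09 ± 0.19 (limma, adjusted p = 0.809). The call in model against normal was lost without model library b (limma, adjusted p = 0.0607), while that in SAR against model passed under all 13 alternatives tried, with adjusted p from 0.000194 to 0.0371. Of the 50-base stretches of Rdh7 in GENCODE M21, 12.9% also occur in another gene, mostly the pseudogene Rdh18-ps, so some of its reads could have been counted elsewhere.

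Rdh11 encodes a retinal reductase of broad expression. Its normal libraries had 219.7, 221 and 166 normalised reads, its model libraries 229.8, 295 and 335 and its SAR libraries 448, 328 and 337. The lowest model library lay just above the highest normal one, and the model and SAR ranges overlapped. Rdh11 did not pass in model against normal livers (0.49 ± 0.20, limma, adjusted p = 0.0863) or in SAR against model livers (0.40 ± 0.20, limma, adjusted p = 0.158). It was higher in SAR than in normal livers by 0.87 ± 0.19 (limma, adjusted p = 0.048), a call close to the threshold. The adjusted p of limma was 0.116 without normal library a and 0.125 without b, and 0.131, 0.104 and 0.0851 without SAR library a, b and c. With normal library c left out it was 0.0389.

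Aldh1a1 oxidises retinal to retinoic acid. It had 14418, 12871 and 5880 normalised reads in normal livers, 5176, 6854 and 13683 in model livers and 17253, 22952 and 21183 in SAR livers. Normal and model libraries overlapped, with library c low in the normal group and high in the model group, and all SAR libraries lay above both groups. The difference was -0.40 ± 0.47 on the log2 scale in model against normal livers (limma, adjusted p = 0.525). With both libraries c left out it was -1.20 (limma, adjusted p = 0.000201). In SAR against model livers Aldh1a1 was 1.40 ± 0.36 higher (limma, adjusted p = 0.0218), a ratio of group means of 2.43. That call was lost without model library a (limma, adjusted p = 0.0684), model library b (0.0952), SAR library b (0.0845) or SAR library c (0.0735), and kept without model library c (0.000336). Against normal livers SAR livers were 0.98 ± 0.34 higher, which did not pass (limma, adjusted p = 0.126). Of its 50-base stretches, 3.06% also occur in Aldh1a7.

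Cyp26a1 encodes the main hepatic enzyme that breaks down retinoic acid. It had 5.76, 4.31 and 24.2 normalised reads in normal livers, 49.9, 36.0 and 83.8 in model livers and 113, 175 and 117 in SAR livers. These rest on 6, 4 and 22 reads, 69, 47 and 105 reads, and 95, 145 and 91 reads. Library c was the highest of the normal and of the model libraries, and the 3 groups did not overlap. The group means were 11.4 ± 11.1, 56.6 ± 24.6 and 135 ± 34.9 (SD, n = 3 each). The ratio of group means was 4.93 for model against normal, 2.43 for SAR against model and 11.8 for SAR against normal. Without normal library c the normal mean was 5.03, and without model library c the model mean was 42.9. No test is given because the gene was chosen by this pattern.

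Rarb encodes the retinoic acid receptor beta and was close to the limit of these libraries. Its reads were 7, 8 and 4 in normal livers, 7, 11 and 9 in model livers and 5, 0 and 4 in SAR livers, which is 55 reads over the 9 libraries. The normalised levels were 6.72, 8.62 and 4.40, then 5.06, 8.42 and 7.18, then 5.96, 0 and 5.13. All 3 groups overlapped, and the group means were 6.58 ± 2.11, 6.89 ± 1.70 and 3.70 ± 3.23 (SD, n = 3 each). Of the 50-base stretches of Rarb, 34.1% also occur in genes on the opposite strand, chiefly Top2b, and no strand setting is stated, so part of these reads could belong to Top2b.

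Compared per kilobase of exon on the scale of normalised reads, the order of the 7 genes in normal livers was Rbp4 (56380), Rdh7 (10387), Aldh1a1 (2239), Rdh11 (58.5), Lrat (15.5), Cyp26a1 (5.76) and Rarb (1.25). In SAR livers Cyp26a1, at 68.1 per kilobase, stood above Lrat, at 19.1, and below Rdh11, at 107. In model livers Lrat had 41.3 and Cyp26a1 28.5 per kilobase, and their libraries overlapped. The lengths are those of GENCODE M21, which need not be the annotation the authors counted on.

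The nearest patterns over the 9 libraries were looked up by the root mean square difference of centred log2 levels among 12366 genes. For Cyp26a1 the nearest genes were Ncam2 at 0.774, Arrdc2 at 0.920, Sult1c2 at 0.925, Gbp10 at 0.927 and Dsg1c at 0.961, against a median of 1.77 over all genes. Ncam2 had group means of 2.13, 16.7 and 39.4 normalised reads in normal, model and SAR livers. For Rbp4 the nearest gene was Acaa2, a mitochondrial thiolase, at 0.0499, and for Rdh11 it was Sc5d, an enzyme of cholesterol synthesis, at 0.0782. Rdh7 was nearest to 1300017J02Rik at 0.103 and Baat, which conjugates bile acids, at 0.122. Lrat was nearest to Gdf2 at 0.264 and to the stellate cell marker Ecm1 as the second nearest gene. Aldh1a1 was nearest to Sord at 0.244. These distances describe the 9 libraries and carry no test.

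The wider retinoid pathway was followed through 77 other genes, of which 70 were in the tables. In model against normal livers 56 of them passed the filter on low values. Of these, 8 were higher, 15 were lower and 33 did not pass, with a median log2 difference of -0.39 against 0.02 over all genes. Over all genes tested, 19.8% were higher and 19.2% were lower. In SAR against model livers 55 were tested, 16 were higher, 6 were lower and 33 did not pass, with a median of 0.38 against 0.02. The shares over all genes there were 13.5% higher and 16.1% lower. Aldh1a2, whose test is not used here, is counted among the genes that did not pass in both of these comparisons. In SAR against normal livers 53 were tested, and the only call was Adh4, which was higher. Over all genes 1.61% were higher and 1.75% lower in that comparison. These shares also stand beside the counts of the smaller lists below. The count of lower genes in model livers was 6 without normal library a and 8 without b, 7 without model library a and 5 without b, and it was 29 with both libraries c left out. The count of higher genes in SAR against model livers was 9 without model library a, model library b or SAR library b, 10 without SAR library c and 24 without model library c.

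**Figure D3:**
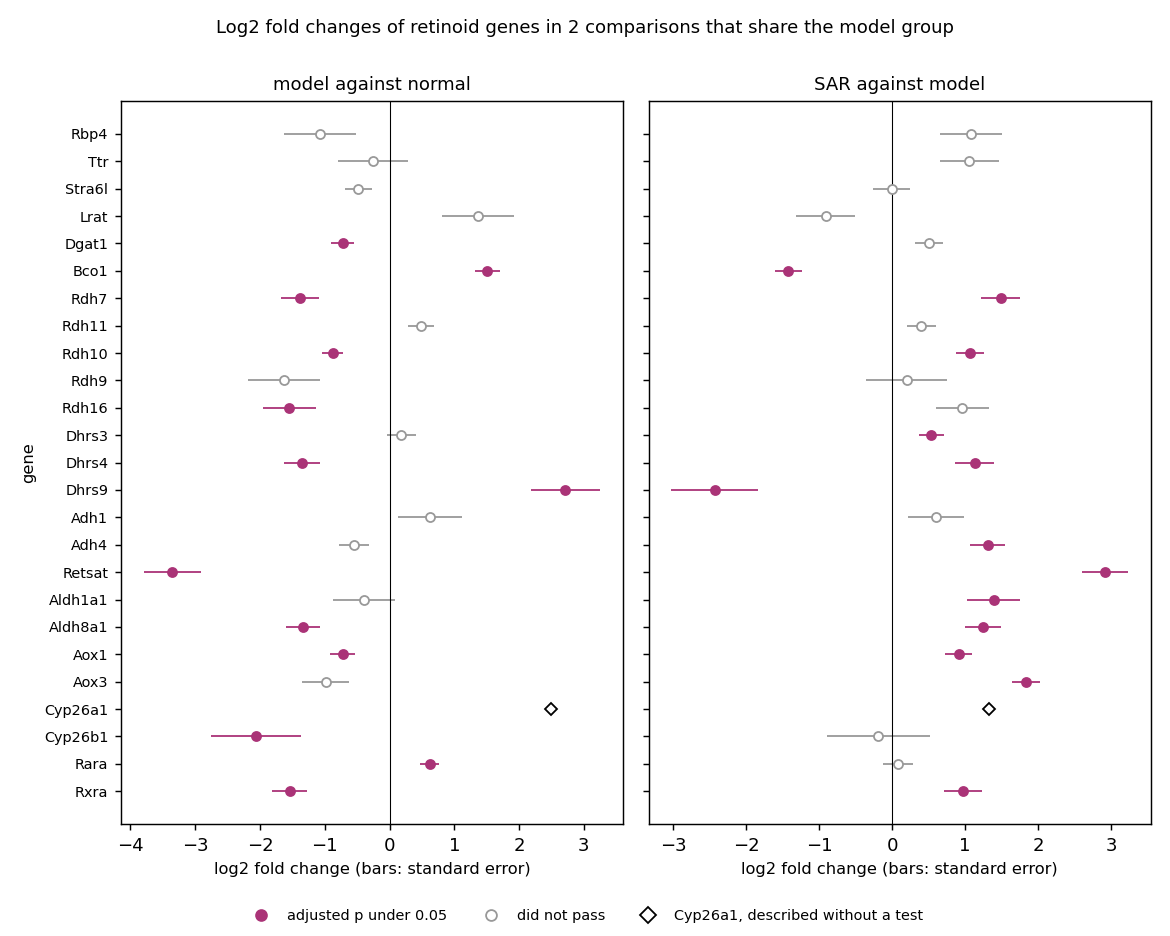
Log2 fold changes, with standard errors as bars, of retinoid genes named in the text, ordered from transport to receptors, for model against normal on the left and SAR against model on the right. Filled points passed limma at an adjusted p under 0.05, open circles did not, and the open diamond is Cyp26a1, which has no test. Retsat was the furthest to the left in model livers, at -3.36, and the furthest to the right in SAR against model, at 2.91.

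Among the enzymes that convert retinol and retinal, Rdh7 and Rdh11 included, 17 of 24 listed genes were tested. In model livers 7 were lower and 1 was higher, and in SAR against model livers 8 were higher and 1 was lower. Several calls were lost with 1 library left out, among them Adh5 and Rdh14 in both comparisons, which are named after their values were seen. In SAR against model livers Dhrs4, Dhrs9 and Adh5 were lost without model library a or b, or SAR library b or c. The adjusted p of limma there ran from 0.0528 to 0.0761. Retsat, which saturates retinol to dihydroretinol, had 17391, 17311 and 6404 normalised reads in normal livers. It had 939, 1058 and 1835 in model livers and 6367, 9303 and 12528 in SAR livers. Every model library lay below every other library, and the normal and SAR ranges overlapped. Retsat fell by 3.36 on the log2 scale in model livers (SE 0.44, limma, adjusted p = 0.00236) and was 2.91 ± 0.31 higher in SAR than in model livers (limma, adjusted p = 0.000925). These calls passed under every alternative tried, 14 for the first comparison and 13 for the second. Of its 50-base stretches 14.1% overlap a gene model on the opposite strand.

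Rdh10, a retinol dehydrogenase needed for retinoic acid in embryos, had 265, 222 and 228 normalised reads in normal, 144, 115 and 132 in model and 228, 329 and 259 in SAR livers. It fell by 0.88 on the log2 scale in model livers (SE 0.17, limma, adjusted p = 0.0071) and was 1.07 ± 0.19 higher in SAR than in model livers (limma, adjusted p = 0.00562). Dhrs4 was lower in model livers (-1.35, limma, adjusted p = 0.00894), and Rdh16 was too (-1.55, limma, adjusted p = 0.0215). The Rdh16 call did not pass once normal library a (0.0748) or b (0.0667), or model library a (0.0822) or b (0.08), was dropped. In SAR against model livers Rdh16 did not pass (limma, adjusted p = 0.0724), but did without model library c (1.39, limma, adjusted p = 0.00143). Dhrs9 went the other way, rising by 2.71 in model livers (limma, adjusted p = 0.00816). Adh4, an alcohol dehydrogenase that accepts retinol, was 1.31 ± 0.24 higher in SAR than in model livers (limma, adjusted p = 0.00562). Against normal livers it was 0.74 ± 0.15 higher (limma, adjusted p = 0.046). The latter call did not pass once normal library a (0.108) or b (0.141), or SAR library a (0.0935), b (0.108) or c (0.0876), was dropped.

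Adh1, an abundant hepatic alcohol dehydrogenase that also oxidises retinol, passed in neither comparison with model livers (0.62, limma, adjusted p = 0.342, and 0.60, limma, adjusted p = 0.258). Without model library c it passed in SAR against model livers (1.03, limma, adjusted p = 0.00496). Rdh9 had values of -1.63 (limma, adjusted p = 0.0501) and 0.20 (limma, adjusted p = 0.805), and 68.3% of its 50-base stretches occur in another gene, mainly Rdh16f1. Dhrs3, which reduces retinal back to retinol, was 0.54 ± 0.17 higher in SAR than in model livers (limma, adjusted p = 0.0464). That call was lost with each of the 6 libraries left out in turn, at adjusted p from 0.0635 without model library c to 0.156 without SAR library b.

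**Figure D4:**
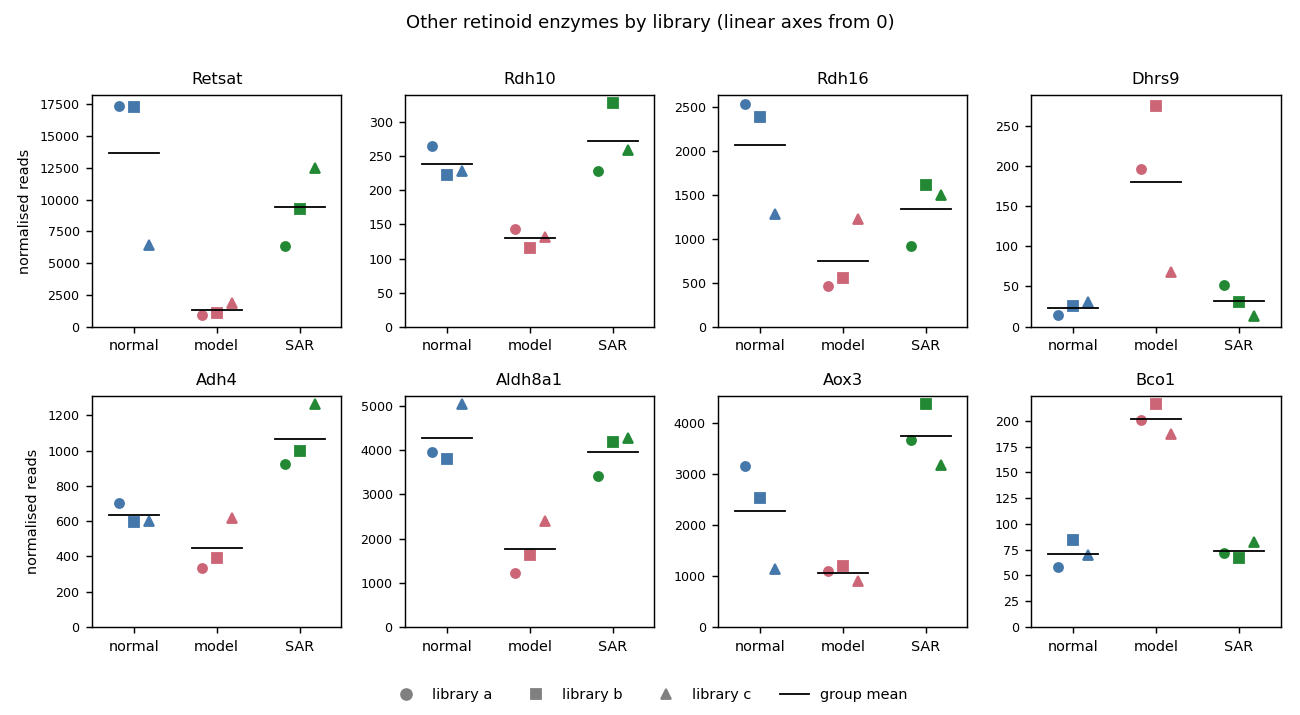
Levels of 8 other retinoid enzymes per library, as normalised reads on linear axes that start at 0, with the 3 groups on the x axis. Points are libraries a, b and c and the line is the group mean of 3. The model libraries of Retsat (939 to 1835) lie below all others, and those of Bco1 (188 to 217) lie above all others.

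The list for oxidation of retinal to retinoic acid held 7 genes, all of which passed the filter on low values. It includes Aldh1a7, and Aldh1a2, whose test is not used here. Being listed does not show that each product oxidises retinal. Of the list, 2 were lower in model livers, Aldh8a1 (-1.34, limma, adjusted p = 0.0085) and the aldehyde oxidase Aox1 (-0.72, limma, adjusted p = 0.0204). The Aox1 call was lost without normal library a (0.0774) or b (0.065) or model library b (0.0661). Higher in SAR than in model livers were 4, Aldh1a1, Aldh8a1 (1.25, limma, adjusted p = 0.00802), Aox1 (0.91, limma, adjusted p = 0.00775) and Aox3. Aox3 had 1095, 1206 and 899.7 normalised reads in model livers and 3675, 4373 and 3189 in SAR livers, and was 1.83 ± 0.19 higher (limma, adjusted p = 0.000693). Its normal libraries had 3172, 2543 and 1131, so library c of the normal group lay within the model range.

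Both tested genes of carotenoid cleavage were called in both comparisons with the model group, in opposite directions. Bco1, which makes retinal from beta-carotene, had 58.5, 84.0 and 69.4 normalised reads in normal livers. It had 201, 217 and 188 in model livers and 71.6, 66.5 and 82.0 in SAR livers. It rose by 1.51 ± 0.19 in model livers (limma, adjusted p = 0.0023) and was lower in SAR than in model livers, at -1.43 ± 0.18 (limma, adjusted p = 0.00154). Bco2, which cleaves carotenoids off centre, lies outside the rule for named genes and is named after its values were seen. It was lower in model livers (-0.93, limma, adjusted p = 0.0297) and higher in SAR than in model livers (1.33, limma, adjusted p = 0.0239). The first Bco2 call was lost on dropping normal library a (0.102), normal library c (0.0564), or either of model libraries a (0.0899) and b (0.103). The second was lost on dropping model library a (0.0747), model library b (0.087), or either of SAR libraries b (0.0837) and c (0.0586). Of 9 tested genes for retinyl ester synthesis and hydrolysis, 1 was lower in model livers, Dgat1, an acyltransferase (-0.72, limma, adjusted p = 0.0169). The Dgat1 call did not pass once normal library a (0.0513) or b (0.0564), or model library a (0.063) or b (0.0688), was dropped. In SAR against model livers Dgat1 did not pass (limma, adjusted p = 0.0722), but did without model library c (0.68, limma, adjusted p = 0.0122). Higher in SAR than in model livers were 3, among them the carboxylesterase Ces1f (2.44, limma, adjusted p = 0.00794) and hepatic lipase Lipc (1.86, limma, adjusted p = 0.00175). The third, Ces1d, lies outside the rule for named genes and is named after its value was seen (2.63, limma, adjusted p = 0.0225). It was lost without model library a (0.078), model library b (0.082), SAR library b (0.0817) or SAR library c (0.0823). With normal library c and model library c both left out, a setting chosen after seeing the data, more retinyl ester genes were lower in model livers. Among them were Ces1d (-3.40, limma, adjusted p = 3.22e-08), Ces1f (-2.99, limma, adjusted p = 1.5e-07) and Lipc (-1.79, limma, adjusted p = 6.23e-07).

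Of the 5 receptors tested, Rara rose in model livers (0.62, limma, adjusted p = 0.0165) and Rxra, the main hepatic RXR, fell by 1.54 on the log2 scale (SE 0.27, limma, adjusted p = 0.00559). Rxra had 6012, 5103 and 6556 normalised reads in normal, 1552, 1790 and 2986 in model and 3260, 4032 and 4530 in SAR livers. The 3 groups did not overlap, and SAR livers were 0.97 ± 0.26 above model livers (limma, adjusted p = 0.0237). That call was lost without model library a (0.0818), model library b (0.0962), SAR library b (0.083) or SAR library c (0.0877). The Rara call was lost without normal library a (0.064), model library a (0.0531) or model library b (0.062). In SAR against model livers Rara did not pass, with group means of 319 and 299.5 normalised reads. It passed there under no alternative (lowest limma adjusted p = 0.251). The other two calls in model livers, Rarg (1.87, limma, adjusted p = 0.0473) and Rxrg (-1.30, limma, adjusted p = 0.0371), lie outside the rule for named genes and are named after their values were seen. Rarg was lost without normal library a (0.0691) or model library a (0.132), b (0.103) or c (0.0888), and Rxrg without normal library a (0.0715) or b (0.118) or model library a (0.119) or b (0.119). Rarg was lower in SAR than in model livers (-1.43, limma, adjusted p = 0.00969), a call lost with all 9 libraries in 1 fit (0.0855).

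The list of retinoic acid targets, which includes Cyp26a1 and Rarb, did not move in 1 direction. Of its 9 tested genes besides Cyp26a1, 3 were higher in model livers, among them Tgm2 and Hoxb4, and 1 was lower, Cyp26b1. Of 8 tested in SAR against model livers, 2 were higher, Rarres1 and Dhrs3, and 3 were lower, again with Tgm2 and Hoxb4 among them. Tgm2, a transglutaminase, had 741, 1044 and 820.2 normalised reads in normal, 1743, 1760 and 1646 in model and 1114, 666 and 809 in SAR livers. It rose by 0.99 ± 0.16 in model livers (limma, adjusted p = 0.00438) and was lower in SAR than in model livers, with a ratio of group means of 0.511 (limma, adjusted p = 0.00753). Hoxb4 rose by 2.19 (limma, adjusted p = 0.00375) and was lower in SAR than in model livers (-1.85, limma, adjusted p = 0.00536). Rarres1 was 1.17 ± 0.18 higher in SAR than in model livers (limma, adjusted p = 0.00277). Summed markers of 3 other cell types were, like Tgm2 and Hoxb4, highest in model livers. The 12 macrophage and Kupffer cell markers summed to 4402 to 6242 normalised reads in normal, 8698 to 10582 in model and 3323 to 4375 in SAR livers. Single markers of that list differed in direction. In model against normal livers 6 were higher and 4 were lower (Clec4f, Cd163, Timd4 and Vsig4). In SAR against model livers 7 were lower. The 10 cholangiocyte markers summed to 582 to 1022, 2119 to 11294 and 919 to 1924, and the 9 T and B lymphocyte markers to 107 to 129, 346 to 490 and 147 to 240 in the same order of groups. The cholangiocyte sum was 2119 in model library c, against 9964 and 11294 in libraries a and b. Other lists were not highest in model livers. The 11 endothelial cell markers summed to 2425 to 5165.5 in normal, 3348 to 3769 in model and 1626 to 2811 in SAR livers. The neutrophil markers, also 11, summed to 119 to 7992, 1334.5 to 2946.5 and 250 to 637, highest in normal library c. No marker of these lists was at 0 throughout a group, and their part in the results for retinoic acid targets was not tested.

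Cyp26b1, the related retinoic acid hydroxylase, had 145, 115 and 39.6 normalised reads in normal livers, 17.3, 9.18 and 51.1 in model livers and 25.0, 7.25 and 28.2 in SAR livers. It was lower in model livers by limma at the threshold (-2.06 ± 0.69, adjusted p = 0.0484), although normal library c lay within the model range. This call did not pass once normal library a (0.152) or b (0.128), or model library a (0.137) or b (0.145), was dropped. SAR against model livers did not pass (-0.19 ± 0.71, limma, adjusted p = 0.858). Among the binding proteins, Fabp5, which carries retinoic acid and fatty acids, rose by 2.59 in model livers (limma, adjusted p = 0.0126), and Crabp2 had 1 read in all 9 libraries. Stra6l, a retinol-binding protein receptor of the liver, did not pass in model against normal livers (-0.48, limma, adjusted p = 0.1). Of 8 receptor coregulators 1 was called, Ncoa2, which was lower in model livers (-0.66, limma, adjusted p = 0.0151) and was lost without model library b (0.0636).

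**Figure D5:**
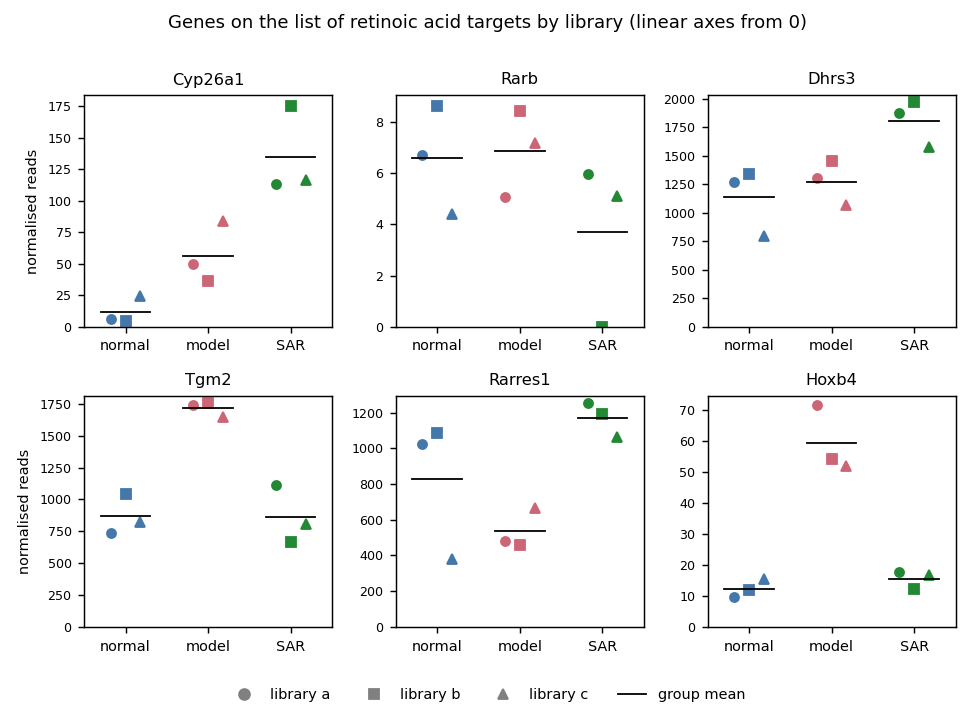
Levels of 6 genes on the list of retinoic acid targets per library, as normalised reads on linear axes that start at 0, with the 3 groups on the x axis. Points are libraries a, b and c and the line is the group mean of 3. Cyp26a1 is highest in the SAR libraries, Tgm2 and Hoxb4 are highest in the model libraries, and Rarb stays under 9 normalised reads throughout.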

How the data were processed

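Liver RNA-seq of 9 libraries, 3 per group, was used as 2 tables that the authors deposited, which compare the model group with the normal group and the SAR group with the model group. A NEBNext Ultra kit was used on Trizol-extracted total RNA, per the labels' protocols. The genome build is mm9, per the submitters' processing notes, with aligner, counter, annotation and strand setting not given in the sources used here. The deposited signal is, per the file headers, a group mean of read counts divided by size factors. Per the file headers, the fold is the ratio of 2 group means, the log2 value is its logarithm, and the p-values come from the DESeq test of the authors.

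Each deposited mean is a sum of 3 whole read numbers, each times a constant of its library, and was solved for these numbers. All 16521 genes of the model group had 1 solution from both tables. In the normal group 16287 of 16374 genes and in the SAR group 16232 of 16294 had 1 solution. Of the rest, 68 and 48 were settled by which solution gives the deposited p-value, among them Rbp4 in the normal and SAR groups and Rdh7 in the normal group. Recovered reads gave the deposited p-value for 1000 of 1000 genes checked in each table. The genes checked were drawn from a range of means below those of Rbp4, Rdh7 and Aldh1a1. The check therefore does not cover these abundant genes, nor the reads that were settled by the p-value. In all, 16499 genes had reads in all 9 libraries. The authors' identifiers matched a symbol for 16490 of 16521 genes.

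limma 3.58.1 (R 4.3.3, lmFit and eBayes with trend) was run across all genes on log2(normalised reads + 1). The fit held the 2 groups compared, with genes of mean at least 10 over the 6 libraries, a threshold of 0.05 on the adjusted p, and size factors of the table that holds both groups. SAR against normal and all levels used median-of-ratios factors over the 9 libraries, whose ratios to the deposited factors varied by up to 2.35% within a table. The scripts were tested on simulated data. An exact permutation of 3 against 3 libraries cannot go below p = 0.1, so none is given. Other genes were named by their role, 14 of them, or, up to 10 per comparison, by adjusted p under 0.05 with groups that do not overlap, in order of p, and 1 gene of the lists is not reported here. The members and lists were chosen with earlier results of these data known. Alternatives varied the pseudocount, filter, scaling, libraries fitted, prior variance and libraries left out. Identity between dehydrogenase proteins was planned and not run, as no protein sequences were used here.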

Additional observations from a re-analysis of the deposited data

How the results depend on the processing

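Over all genes, 4917 were called in model against normal livers, and leaving out each library in turn gave 2425 (without model library b) to 5812 (without model library c). Leaving out normal library c and model library c together, an alternative chosen after seeing the data, gave 7393. SAR against model gave 3700 calls, with 1566 (without model library b) to 5202 (without model library c) when each library was left out in turn. SAR against normal gave 398 calls, 22 with a constant prior variance and 5 (without normal library b) to 1081 (without normal library c) when each library was left out. The log2 differences of Rdh11 and Adh4 there stayed between 0.73 and 0.95 and between 0.61 and 0.83 over the alternatives. None of the calls named in the text reversed its direction in an alternative. Of the members' group means, that of Rdh7 in normal livers moved by more than its SD, to 19392 normalised reads with the size factors of the deposited table. Of the values with a library left out, 299 of 362 kept their side of the threshold in model against normal, 306 of 357 in SAR against model and 331 of 348 in SAR against normal. In the other planned settings 398 of 422, 401 of 413 and 398 of 404 did. Rbp4 passed with a constant prior variance (limma, adjusted p = 0.0398 and 0.0448), Lrat in model against normal with all 9 libraries in 1 fit (0.0485) and Rdh11 there with upper quartile scaling (0.0437). A constant prior variance ended the calls of Cyp26b1 (0.0728) and Rarg (0.0757) in model against normal, of Rxra (0.0505), Ces1d (0.0562) and Dhrs3 (0.0812) in SAR against model, and of Rdh11 (0.0984) and Adh4 (0.0988) in SAR against normal. Cyp26a1 and Rarb are limited by depth, with 32 and 19 reads in the normal group. No paired analysis was possible because the columns of the tables carry no replicate numbers.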
